A study of Homo sapiens with 12 samples.

Results

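The cells described here carried shCDS, a doxycycline (Dox)-inducible short hairpin RNA against the coding sequence of *PRC1*, in SK-N-MC and in RDES, a pair of established Ewing sarcoma (EwS) cell lines. The members are 4 of 12 arrays, 1 for each condition: SK-N-MC shCDS Dox (+), SK-N-MC shCDS Dox (−), RDES shCDS Dox (+) and RDES shCDS Dox (−). Dox (+) cells received 1 µg/ml Dox for 60 h, renewed at 48 h, Dox (−) cells received none, and both carried the same hairpin construct. The other 8 arrays held the same lines with shUTR, a hairpin against the untranslated region of *PRC1*, or shCtrl, a non-targeting hairpin, again with and without Dox. Every derivative line was represented by 1 array a condition, so the 2 cell lines were the replicates of the Dox comparison. Each difference below is Dox (+) minus Dox (−) within a line on the scale of the deposited log2 signal, where −1 stands for a halved signal, and shCtrl was not subtracted. Of 33616 genes with a symbol of their own, the 15413 with a mean of at least 6.5 over the Dox (−) shCDS arrays were tested, 10565 of them protein-coding.

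PRC1 bundles antiparallel microtubules where they overlap between the separating chromosomes and so builds the central spindle, the scaffold on which the cleavage furrow is placed and the daughter cells are cut apart. Kinesins such as KIF4A and KIF23, the kinase PLK1 and the chromosomal passenger complex, with the kinase AURKB, work on the same structure. EwS cells are driven by a fusion of EWSR1 with an ETS factor, most often FLI1, and divide rapidly in culture.

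The experiment rests on 1 small RNA, so its sequence is shown first, with the site it was designed against and the guide strand that would pair with that site. Capitals mark bases 2 to 8 of the guide, the seed, and the bases of the site that pair with them.
shCDS target site: caggaacattcaaAGGCATTt
shCDS guide: aAATGCCTttgaatgttcctg
The 21-base site has a GC content of 38.1%. None of 2370 mature human miRNAs of RefSeq shares this seed at bases 2 to 8. A pair of them, hsa-miR-365a-3p and hsa-miR-365b-3p, have the same bases 2 to 7. Transcripts with a match to the seed were not searched for here.

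The median signal over all probe sets lay between 5.29 and 5.40 on the 12 arrays. All 11 genes of the EwS marker list on the arrays, among them *STEAP1* and *NKX2-2*, were at or above 6.5 in all 4 shCDS arrays. The list also holds *EWSR1*, a partner gene of the fusion, and its signal was not taken here as one of the fusion. Of the markers of other cells, 10 of 11 haematopoietic, 7 of 12 endothelial, 7 of 12 epithelial and 1 of 11 fibroblast genes were below 6.5 in all 4. The 2 lines were told apart by *STAG2*, a cohesin subunit, at 5.84 and 6.06 in SK-N-MC shCDS Dox (+) and Dox (−) cells against 13.78 and 14.01 in RDES. *BGN*, which encodes the matrix proteoglycan biglycan, was at 15.61 and 15.71 in SK-N-MC cells and at 4.78 and 4.42 in RDES. The arrays labelled RDES shCtrl did not follow their label, with *STAG2* at 6.01 and 6.10 and *BGN* at 15.67 and 15.59 in Dox (+) and Dox (−) cells. In SK-N-MC shCtrl cells *STAG2* was at 9.32 and 9.15, between the levels of the 2 lines, with *BGN* at 15.66 and 15.51. That pair thus did not match the SK-N-MC shCDS arrays in *STAG2* either. Values from both shCtrl pairs are therefore given as labelled. The pair labelled RDES shCtrl does not serve as a control of the RDES background. The SK-N-MC shCtrl pair is set beside SK-N-MC values with this limit, and the part of either pair in the results was not tested.

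*PRC1* was the gene with the lowest shCDS difference in both lines, and the extent was nearly the same. Its signal was 11.55 in Dox (+) and 15.56 in Dox (−) SK-N-MC cells, a difference of −4.02, and 10.54 in Dox (+) and 14.50 in Dox (−) RDES cells, a difference of −3.96. The Dox (+) signal was 6.18% of the Dox (−) signal in SK-N-MC and 6.42% in RDES. With the other hairpin the difference was −2.93 in SK-N-MC and −1.47 in RDES, and in the shCtrl pairs it was −0.11 and −0.03. The gene lies on chromosome 15 from 90966040 to 90994535 (GRCh38.p14).

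In the limma fit of the 4 arrays, with the cell line as a block, *PRC1* fell by 3.99 on the log2 scale (SE 0.22, 2 pairs, adjusted p = 0.00419, lower in 2 of 2 lines). These pairs were chosen with their strong silencing of *PRC1* known, so this value describes the choice and is no independent evidence of it. *PRC1* was the only gene of 15413 to pass after Benjamini-Hochberg adjustment, 0.00649% of those tested, and none (0%) passed in the upward direction. At an unadjusted p under 0.05 stood 1424 genes, 904 lower and 520 higher. Without the replicate block no gene passed in limma, and 101 had an unadjusted p under 0.05. The fit had 1 residual degree of freedom. Its p-values rest on the spread between the 2 lines, which limma moderated with the spread of all genes tested. The spread between the lines may be partly technical. An exact permutation over 2 pairs cannot give a two-sided p below 0.5, and no gene other than *PRC1* passed, so the others are described by their values, with the adjusted p beside a few.

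Besides *PRC1*, only *DENND6A* and *BNIP3L* were lower by at least 2 log2 in both lines. *DENND6A*, which encodes an activator of Rab GTPases in membrane traffic, was at 10.71 in Dox (+) and 13.37 in Dox (−) SK-N-MC cells (−2.66) and at 10.85 and 13.16 in Dox (+) and Dox (−) RDES cells (−2.31). The Dox (+) signal was 15.8% and 20.2% of the Dox (−) signal in SK-N-MC and RDES. With shUTR it was lower too, by −1.17 and −0.91, while the shCtrl pairs gave 0.10 and −0.13.

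*BNIP3L*, which encodes a mitophagy receptor of the outer mitochondrial membrane, was at 11.53 in Dox (+) and 14.93 in Dox (−) SK-N-MC cells (−3.41). In RDES it was at 12.48 in Dox (+) and 14.81 in Dox (−) cells (−2.33). The shUTR differences were −1.35 in SK-N-MC and −0.21 in RDES. Both genes were singled out by these shCDS differences, so the lack of overlap between their Dox (+) and Dox (−) arrays only describes them. Neither passed the limma test, with adjusted p = 0.0778 for *DENND6A* and adjusted p = 0.112 for *BNIP3L*, although under other settings of the fit the adjusted p of each lay between 0.000465 and 1.

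*AURKB* was lower in both lines, but to a different extent. It was at 11.48 in Dox (+) and 12.44 in Dox (−) SK-N-MC cells (−0.96), but at 8.61 in Dox (+) and 11.04 in Dox (−) RDES cells (−2.42). With shUTR the differences were −0.58 and 0.01, and with shCtrl 0.47 and −0.06. The limma test over both lines gave adjusted p = 0.29.

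**Figure D1:**
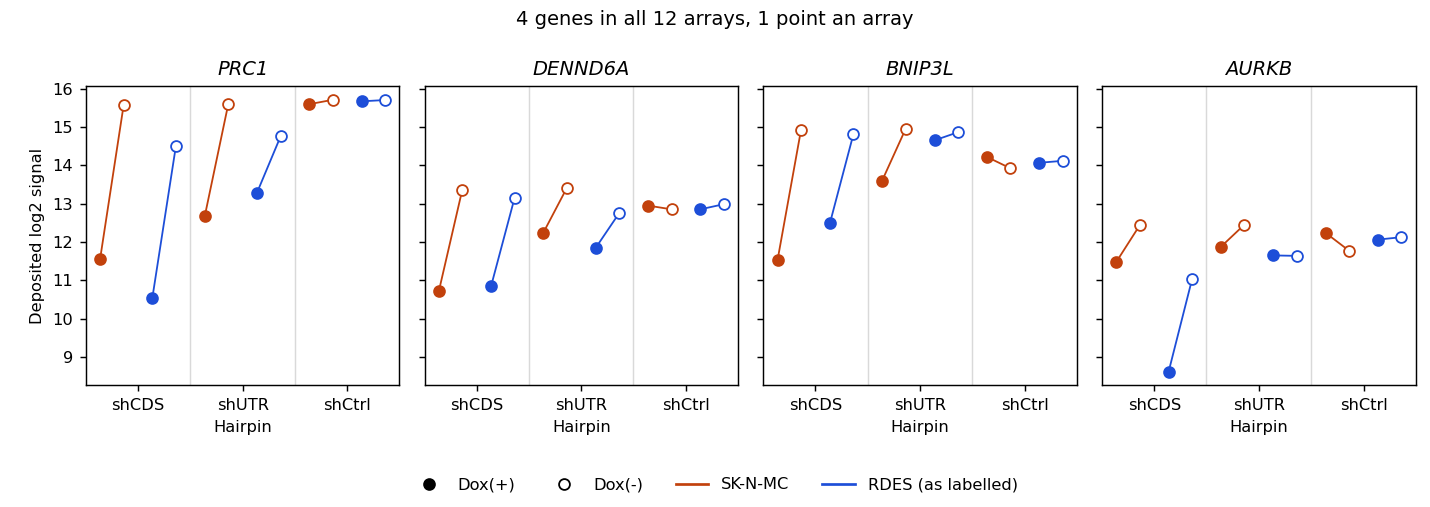
Deposited log2 signal (vertical axis) of *PRC1*, *DENND6A*, *BNIP3L* and *AURKB* in all 12 arrays, grouped by hairpin along the horizontal axis, with filled points for Dox (+) and open points for Dox (−), and a line joining the arrays of 1 derivative line. The shCDS pairs of *PRC1* differ by −4.02 in SK-N-MC and −3.96 in RDES, and *AURKB* shows the steepest line in RDES shCDS.

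Genes lower with Dox in both lines were many more than genes higher in both. By at least 1 log2, 67 genes (0.435% of those tested) were lower in both and 7 (0.0454%) were higher in both. In SK-N-MC taken by itself the same limit took in 232 lower (1.51%) and 135 higher genes (0.876%), and in RDES 617 lower (4%) and 177 higher genes (1.15%). The shared lower genes made up 28.9% of the SK-N-MC list and 10.9% of the RDES list, the shared higher genes 5.19% and 3.95%. Centring each pair's differences on their median gave 297 lower and 92 higher genes in SK-N-MC, and repeating the quantile normalization gave 275 and 97. In RDES the same settings gave 530 lower and 224 higher, and 513 and 240. Over all genes tested the differences of the 2 lines had Pearson's r = 0.24 and Spearman's rho = 0.22, and 8657 of 15413 had the same sign. This correlation is across genes, which are not independent replicates, and each line gave 1 pair.

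**Figure D2:**
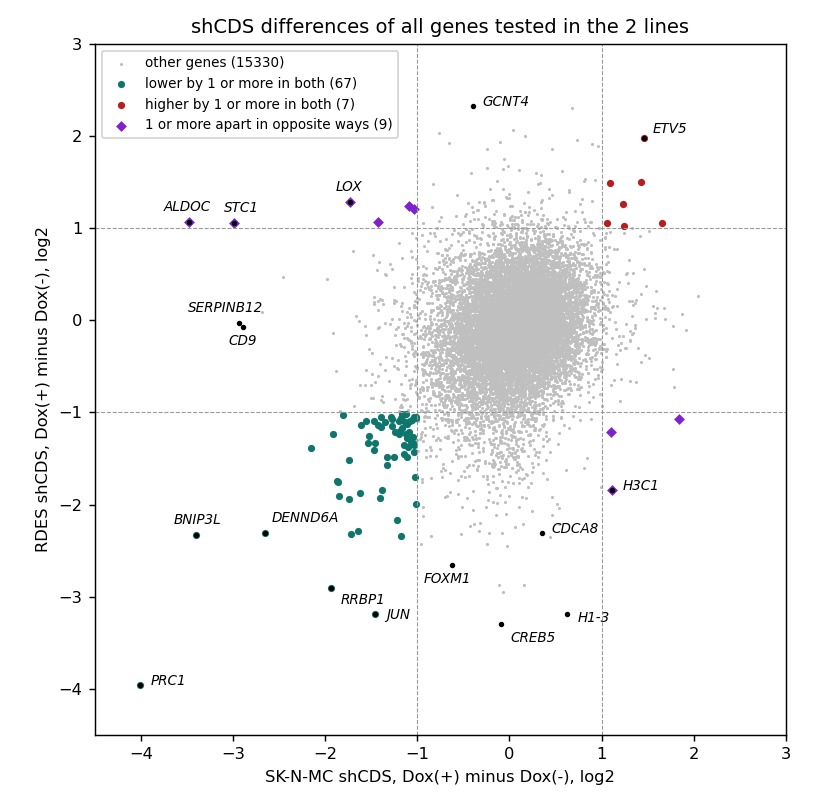
Dox (+) minus Dox (−) difference in log2 signal for each of the 15413 genes tested, in SK-N-MC shCDS (horizontal axis) and RDES shCDS (vertical axis), with dashed lines at 1 log2 from zero. The 67 genes lower in both lines trail towards *PRC1*, the 7 genes higher in both stay near the corner of the limits, and the 9 genes of opposite sign include *ALDOC* and *H3C1*.

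Of the 67 genes lower in both lines, 58 were protein-coding, and the remaining 9 were pseudogenes, small RNAs or non-coding RNAs (*HMGB3P6*, *RBMS2P1*, *DHX9P1*, *MAPK6PS1*, *RNU6-375P*, *RNA5SP85*, *LINC00294*, *ZIM2-AS1* and *ATP6V0E2-AS1*). Their median difference was −1.27 in SK-N-MC and −1.32 in RDES, where all genes tested had medians of 0.07 and −0.06. The shUTR pairs gave the same 67 genes medians of −0.43 (SK-N-MC) and 0.11 (RDES), against −0.15 and 0.18 over all genes tested. In those pairs 11 and 1 of the 67 were lower by at least 1 log2, as were 2.93% and 0.188% of all genes tested. Higher by at least 1 log2 were 0 and 4 of the 67, as were 0.571% and 1.14% of all genes tested. Below zero were 55 and 27 of the 67, against 10126 and 4389 of 15413 genes tested. In the shCtrl pairs the medians of the 67 genes were 0.17 and −0.05, against 0.11 and −0.07 over all genes tested. These genes were selected on the shCDS values, so the shCDS medians only describe them. They are ordered here by what they encode, an order made after their values were seen and not tested for enrichment.

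*RRBP1*, the ribosome-binding protein of the endoplasmic reticulum membrane, was at 7.19 in Dox (+) and 9.13 in Dox (−) SK-N-MC cells (−1.93) and at 6.77 and 9.67 in Dox (+) and Dox (−) RDES cells (−2.90). *KTN1*, which encodes the kinesin-binding membrane protein kinectin, was at 9.57 in Dox (+) and 11.28 in Dox (−) SK-N-MC cells (−1.72) and at 8.64 and 10.96 in RDES (−2.32). *ERO1A*, the oxidase that drives disulfide formation, differed by −1.42 in SK-N-MC and −1.14 in RDES, and *TRAM2*, a translocation-associated membrane protein, by −1.01 and −1.05. The unfolded protein response list as a whole had medians near zero (−0.15 and −0.01 over 29 genes) and no member lower by at least 1 log2 in both lines.

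At the cell surface *PANX1*, which forms ATP-releasing channels, had nearly equal differences. It was at 9.59 in Dox (+) and 11.44 in Dox (−) SK-N-MC cells (−1.85) and at 10.51 in Dox (+) and 12.42 in Dox (−) RDES cells (−1.91). It was near zero with shUTR (−0.26 and 0.23) and with shCtrl (−0.11 and −0.15). The integrin subunits *ITGAV* (−1.05 in SK-N-MC, −1.26 in RDES) and *ITGA6* (−1.39 and −1.16), the glypican *GPC4* (−1.52 and −1.26), the urokinase receptor *PLAUR* (−1.12 and −1.02) and the glucose transporter *SLC2A1* (−1.27 and −1.14) were also below the limit.

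Some of the 67 encode metabolic enzymes. *IDH1*, the cytosolic isocitrate dehydrogenase, was at 11.65 in Dox (+) and 13.81 in Dox (−) SK-N-MC cells (−2.16) and at 11.58 and 12.96 in RDES (−1.38). *ELOVL6* and *SCD5*, which elongate and desaturate fatty acids, differed by −1.46 and −1.16 in SK-N-MC, and in RDES by −1.33 and −1.01. The lysine-degrading enzyme *AASS* (−1.47 and −1.09), the thioredoxin reductase *TXNRD1* (−1.04 and −1.43), *QDPR*, which recycles tetrahydrobiopterin (−1.19 and −1.23), the arginase *ARG2* (−1.16 and −1.17) and the nucleotide kinase *CMPK1* (−1.12 and −1.23) were lower alike.

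*MRPL18*, a protein of the large mitochondrial ribosomal subunit, stood out from its own list. It was at 11.33 in Dox (+) and 13.19 in Dox (−) SK-N-MC cells (−1.87) and at 9.68 in Dox (+) and 11.44 in Dox (−) RDES cells (−1.75). The 58 mitochondrial translation genes tested had medians of 0.30 (SK-N-MC) and 0.05 (RDES), and 1 of the 58 was lower by at least 1 log2 in each line, *MRPL18* itself.

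Others encode transcription factors or their partners. *JUN*, a subunit of AP-1, was at 10.64 in Dox (+) and 12.10 in Dox (−) SK-N-MC cells (−1.46) and at 7.74 and 10.93 in RDES (−3.19). *NFIB* (−1.74 and −1.94) and the neural factor *SOX11* (−1.41 and −1.93) were closer together. *YAP1*, the coactivator of the Hippo pathway, differed by −1.53 and −1.34, *FOXO4* by −1.14 and −1.10, and *NFIL3* by −1.12 and −1.28. *HMGB3*, a chromatin protein, differed by −1.18 in SK-N-MC and −2.34 in RDES. Its pseudogene *HMGB3P6* followed it (−1.22 and −2.17), and the probes of a gene and its copy may not be told apart.

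A few shared lower genes act on DNA or microtubules. *RPA1*, the large subunit of the single-strand DNA binding complex, was at 13.74 in Dox (+) and 15.12 in Dox (−) SK-N-MC cells (−1.39) and at 11.62 and 13.47 in RDES (−1.85). Of 61 genes for DNA replication and S phase, it alone was below the limit in SK-N-MC. *FANCC* of the Fanconi anaemia core complex (−1.07 and −1.32) and the histone chaperone *RBBP7* (−1.33 and −1.48) also were lower in both. *TTL*, the ligase that restores the terminal tyrosine of tubulin, differed by −1.62 and −1.88. *VASH2*, which removes that tyrosine, differed by −1.19 and −1.21, with RDES under 6.5 on both arrays. *GPSM2*, which orients the mitotic spindle (−1.03 and −1.70), and *CCSAP*, a spindle-associated centriole protein (−1.24 and −1.21), belonged to the same set. *RASSF2* (−1.64 and −2.29), *RASSF3* (−1.33 and −1.57) and *RASSF5* (−1.28 and −1.07), of the RAS-association family, were there too. The other members of that family were not examined as a set.

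*DIXDC1*, a regulator of Wnt signalling (−1.87 and −1.75), and *ACTR6*, an actin-related protein of a chromatin remodeller (−1.74 and −1.52), completed the 15 largest shared differences below zero. Among these 15, *RASSF2* and *JUN* were also below −1 with shUTR in SK-N-MC (−1.57 and −1.31), beside *PRC1*, *DENND6A* and *BNIP3L*. In RDES shUTR cells only *PRC1* (−1.47) was. Of the 67 genes, *RRBP1*, *YAP1*, *RBBP7*, *APLP2* (−1.55 and −1.09) and *CSRP2* (−1.47 and −1.41) had been left out of that ranking by the ending of their symbols, and they and the other genes outside it and outside the lists were chosen after their values were seen.

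The 7 genes higher in both lines were *ETV5*, *C1QTNF6*, *SMPD1*, *OLFM3*, *MARVELD1*, *FAS* and the small RNA pseudogene *RNU6-875P*. *ETV5*, an ETS transcription factor induced by ERK signalling, was at 7.40 in Dox (+) and 5.94 in Dox (−) SK-N-MC cells (1.46) and at 9.84 in Dox (+) and 7.87 in Dox (−) RDES cells (1.98). *C1QTNF6*, a secreted C1q-like protein, was at 10.11 and 8.68 in Dox (+) and Dox (−) SK-N-MC cells (1.43) and at 10.65 and 9.15 in RDES (1.50). *SMPD1*, the acid sphingomyelinase of lysosomes, was at 10.85 and 9.62 in SK-N-MC cells (1.23) and at 11.99 and 10.73 in RDES (1.26). These 3 genes were picked for a higher Dox (+) array in each line, and the limma test gave adjusted p = 0.191, 0.239 and 0.289.

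*FAS*, the death receptor, was at 9.37 in Dox (+) and 7.72 in Dox (−) SK-N-MC cells (1.66) and at 11.81 and 10.75 in RDES (1.05). It was the only 1 of 24 p53 targets and of 29 apoptosis regulators past the limit in either line in the upward direction. Both lists had medians between −0.04 and 0.19 in the shCDS pairs. *OLFM3* (1.09 and 1.49) and *MARVELD1* (1.05 and 1.06) were the other protein-coding members. *ETV5* and *OLFM3* were under 6.5 in SK-N-MC without Dox (5.94 and 6.03) and *RNU6-875P* in RDES (6.46), so that 4 of the 7 remain where each line must reach 6.5.

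Just below the limit in 1 line stood *SLC25A22*, a mitochondrial glutamate carrier (1.34 and 1.00), *PRKAR1B*, a regulatory subunit of protein kinase A (1.51 and 0.97), and the Wnt antagonist *DKK2* (0.96 and 1.89). *REEP5*, a protein that shapes the endoplasmic reticulum and had been left out of the ranking by its ending, differed by 0.93 and 1.52. In SK-N-MC shUTR cells *C1QTNF6* and *MARVELD1* went the other way, with differences of −1.05 and −1.47, and the 7 genes had a median of −0.42 there. *RNU6-875P* differed by 1.18 in the SK-N-MC shCtrl pair.

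**Figure D3:**
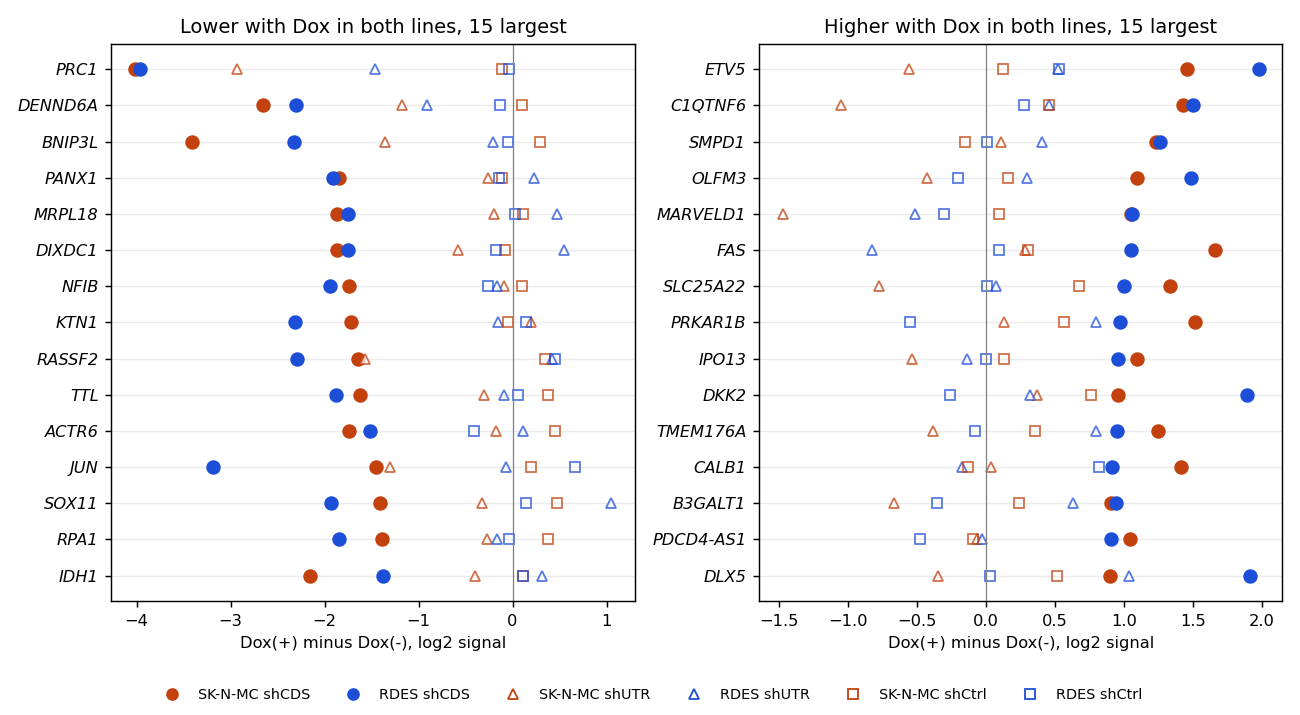
Dox (+) minus Dox (−) difference in log2 signal (horizontal axis) of the 15 genes with the largest shared differences below zero (left) and above zero (right), in shCDS (filled circles), shUTR (triangles) and shCtrl pairs (squares), in orange for SK-N-MC and blue for RDES as labelled. The genes were ranked on the shCDS pairs, so that these lie far from zero follows from the choice. For every gene shown other than *DLX5*, both shCDS pairs lie further from zero in the shared direction than the other 4 pairs.

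Genes of the cell cycle were lower in RDES and stayed near zero in SK-N-MC. Of 69 genes of the G2/M phase, 58 were lower by at least 1 log2 in RDES and none in SK-N-MC, with medians of −1.46 and −0.04. In RDES 68 of the 69 were below zero, and in SK-N-MC 37, as were 8689 and 6513 of all 15413 genes tested. The other pairs had G2/M medians of −0.35 (SK-N-MC shUTR), 0.18 (RDES shUTR), 0.09 (SK-N-MC shCtrl) and −0.09 (RDES shCtrl). In such bulk samples, fewer cells of a phase and less RNA in each cell cannot be told apart, and the difference between the lines has 1 pair on each side and was not tested.

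*FOXM1*, the transcription factor of the G2/M programme, was at 13.10 in Dox (+) and 13.72 in Dox (−) SK-N-MC cells (−0.62) and at 11.02 in Dox (+) and 13.67 in Dox (−) RDES cells (−2.65). *CDCA8*, the borealin subunit of the chromosomal passenger complex, was at 10.72 in Dox (+) and 10.36 in Dox (−) SK-N-MC cells (0.36) and at 8.71 and 11.01 in RDES (−2.31). All 4 complex members tested were lower by at least 1 log2 in RDES. *BIRC5* was at −1.71 there against 0.10 in SK-N-MC, and *INCENP* at −1.44 against 0.03, so *AURKB* was the member furthest below zero in SK-N-MC.

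PRC1's partners at the central spindle showed the same split. Of 35 genes of the midzone and of cytokinesis, a list that includes *PRC1* itself, 13 were lower by at least 1 log2 in RDES (median −0.70). The silenced *PRC1* is counted among these 13. In SK-N-MC only *PRC1* was lower by that much (median −0.01). *ECT2*, the RhoA activator of the furrow, came nearest to a shared difference, with −0.95 in SK-N-MC and −1.75 in RDES. The kinesins *KIF20A* (0.11 in SK-N-MC and −1.77 in RDES), *KIF14* (−0.48 and −1.70) and *KIF2C* (−0.10 and −1.90) were lower in RDES. *KIF23* of centralspindlin (0.15 and −1.35), *KIF4A*, which PRC1 recruits (0.02 and −1.46), and *PLK1* (0.19 and −1.10) were so too. The ESCRT component *CHMP4C*, which acts in the final cut, was higher in both (0.40 and 0.86).

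Around the chromosomes, 27 of 44 centromere and kinetochore genes were lower by at least 1 log2 in RDES and none in SK-N-MC (medians −1.12 and 0.09). *NDC80*, which binds the microtubule, was at 12.74 in Dox (+) and 12.33 in Dox (−) SK-N-MC cells (0.41) and at 10.12 and 11.85 in RDES (−1.72). Condensin and cohesin genes followed in 9 of 23 (medians −0.69 in RDES and −0.00 in SK-N-MC), led by *CDCA5*, the sororin that holds sister chromatids together (−2.11 and 0.46). The lists share members, so these counts overlap. All G2/M, kinetochore and passenger complex genes tested were at or above 6.5 without Dox in each line.

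S-phase genes were lower in RDES in 61 of 61 cases, 35 of them by at least 1 log2 (median −1.07), against a median of 0.02 in SK-N-MC. Of all 15413 genes tested, 8689 were below zero in RDES. *MCM10* (−2.21 in RDES, 0.14 in SK-N-MC), the ligase *LIG1* (−2.07 and 0.24) and *E2F1*, which switches on this programme (−1.93 and 0.18), were among the lowest. Of 41 DNA damage response genes, 14 were below the limit in RDES (median −0.69) and *FANCC* alone in SK-N-MC (median 0.05). *BRCA1* differed by −1.76 in RDES and −0.01 in SK-N-MC, and *RAD54L* by −1.91 and 0.46.

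Replication-dependent histones, which package newly made DNA, showed the same contrast. Of 50 genes, 37 were lower by at least 1 log2 in RDES (median −1.47), and 1 in SK-N-MC (median 0.06). Of the 50, 9 were under 6.5 without Dox in 1 of the lines, where a lower value can hardly be read. Over the other 41, 30 were lower by at least 1 log2 in RDES and 1 in SK-N-MC, and the medians were −1.49 and 0.05. *H1-3*, which is among the 9, was at 6.65 in Dox (+) and 6.03 in Dox (−) SK-N-MC cells (0.63) and at 10.24 in Dox (+) and 13.43 in Dox (−) RDES cells (−3.19). *H1-2* was at 12.31 and 12.38 in SK-N-MC cells (−0.07) and at 8.41 and 11.37 in RDES (−2.95). *H2BC12* was the histone lower in both lines (−1.02 and −1.06), and *H3C1* was above the limit in SK-N-MC and below it in RDES (1.12 and −1.85). Histone genes are near copies of each other, so the probes may share signal between them. In shUTR cells the histone medians were −0.25 in SK-N-MC and 0.11 in RDES.

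The SK-N-MC medians of the passenger complex, kinetochore, S-phase, histone and DNA damage lists were within 0.1 of zero, and their sign turned under other scaling or after subtraction of the shCtrl pair of the same label, while the RDES medians of all 8 lists of the cell cycle and DNA damage kept theirs.

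**Figure D4:**
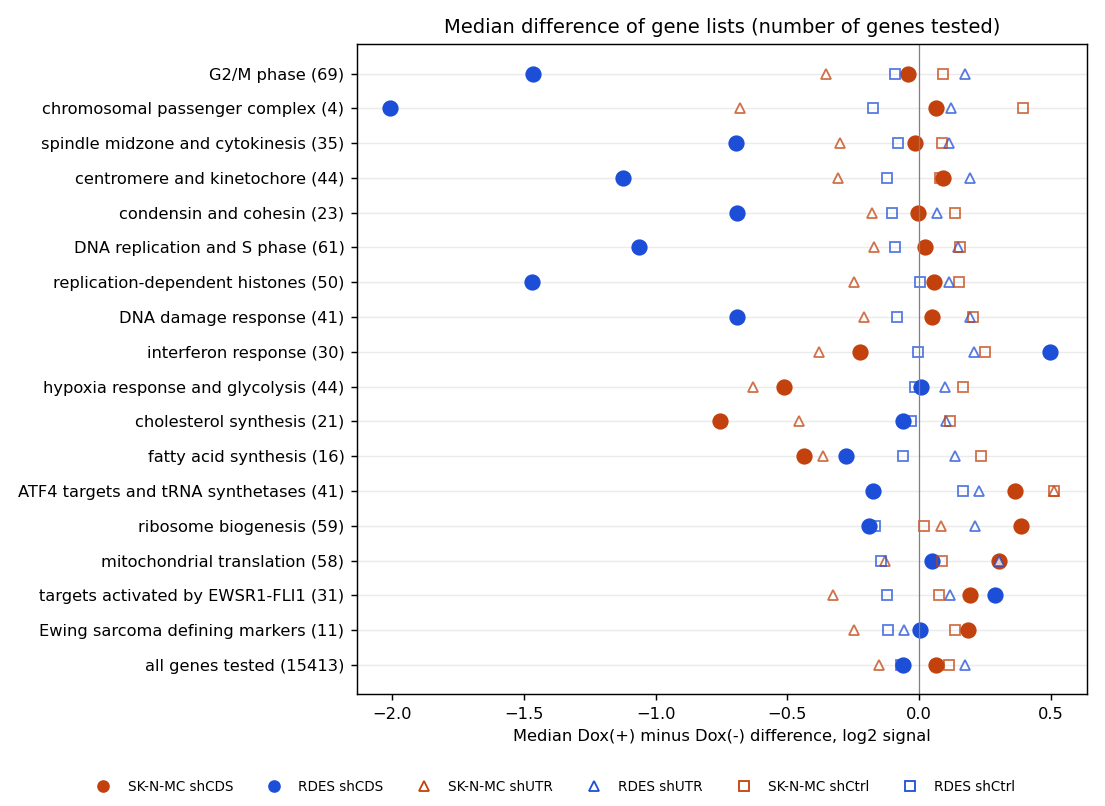
Median Dox (+) minus Dox (−) difference in log2 signal (horizontal axis) of 17 gene lists and of all genes tested, with the number of genes tested in brackets, in shCDS (filled circles), shUTR (triangles) and shCtrl pairs (squares), in orange for SK-N-MC and blue for RDES as labelled. The RDES shCDS medians of the cell cycle lists lie between −2.01 and −0.69. Within the hypoxia list and within the cholesterol synthesis list, the SK-N-MC shCDS and shUTR medians lie below those of the other pairs.

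Promoters of G2/M genes often hold the cell cycle genes homology region (CHR), which recruits MuvB complexes that repress or activate these genes through the cycle. The letters TTTGAA were searched on both strands (TTCAAA on the other), apart from any overlap with other motifs, in the 250 bases before and 50 after each start in RefSeq's promoter table (GRCh38.p14). They were present in 23.5% of 430 protein-coding genes lower by at least 1 log2 in RDES and in 8.97% of 145 such genes in SK-N-MC. The share was 12.7% of the 55 genes lower in both, 10.4% of all 8868 protein-coding genes tested with a promoter, and 15.4% of all 27305 promoters of that length. Of the 56 G2/M genes with a promoter, 64.3% held them. The stretches shown are from *PRC1* and from mitotic genes lower by at least 1 log2 in RDES and not in SK-N-MC, written along the gene's strand with the CHR letters in capitals, and a match of letters is not a bound site.
PRC1, chr15:90994539-90994566, minus strand: ccgtggcgcggTTTGAAattttgcgggg
CDCA8, chr1:37692482-37692509, plus strand: tgactgtggagTTTGAAttgggtggcgg
CCNB2, chr15:59105106-59105133, plus strand: gcgacgcggtaTTTGAAtcctggaacaa
KIF23, chr15:69414283-69414310, plus strand: tgattggcccgTTTGAAatgcgccaggc
The 4 motifs start at positions −20, −23, −29 and −55 from the annotated start. *CCNB2*, a mitotic cyclin, differed by −0.04 in SK-N-MC and −1.52 in RDES. The letters CCAAT, the binding sequence of NF-Y, were on either strand in 49.5% of the genes lower in RDES, 42.8% of those lower in SK-N-MC and 37.7% of all protein-coding genes tested. The E2F letters GGCGGGAA were in 9.77%, 4.83% and 5.38%.

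Among the lower genes of SK-N-MC were those for hypoxia and glycolysis. Of 44 genes of that list, 10 were lower by at least 1 log2 in SK-N-MC (median −0.51), and 3 lower and 3 higher in RDES (median 0.01). Of all genes tested, 1.51% were lower in SK-N-MC, and 4% lower and 1.15% higher in RDES. Over the 41 list genes at or above 6.5 without Dox in each line, 9 were lower in SK-N-MC (median −0.55). In RDES 3 of these 41 were lower and 1 higher (median 0.005). *ALDOC*, a glycolytic aldolase, was at 7.94 in Dox (+) and 11.42 in Dox (−) SK-N-MC cells (−3.48) and at 9.10 in Dox (+) and 8.03 in Dox (−) RDES cells (1.07). *DDIT4*, an inhibitor of mTORC1, was at 9.94 and 12.63 in SK-N-MC cells (−2.69) and at 7.66 and 7.56 in RDES (0.09), and its SK-N-MC shCtrl pair differed by 1.25. *BNIP3L*, *ERO1A* and *SLC2A1* were the 3 members lower in both lines, as given above. *BNIP3*, the paralogue of *BNIP3L*, differed by −1.05 in SK-N-MC, whereas in RDES it differed by 0.50.

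The same list was low in SK-N-MC shUTR cells (median −0.63), where *ALDOC* differed by −2.56, but not in RDES shUTR cells (0.10), where it differed by −0.24. In the shCtrl pairs *ALDOC* was at 1.17 and 0.20, and the list medians were 0.17 and −0.02. The letters ACGTG, the core of the HIF binding sequence, were on either strand in 55% of the 40 hypoxia promoters, in 35.9% of the genes lower in SK-N-MC, in 25.1% of those lower in RDES and in 26.8% of all protein-coding genes tested.

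Cholesterol synthesis had the lowest median of all lists in SK-N-MC. Of 21 genes, 7 were lower by at least 1 log2 and 19 were below zero (median −0.76), where 6513 of all 15413 genes tested were below zero. In RDES none was lower and 1 was higher by that much, and the median was −0.06, with its sign turned under other scaling. *HMGCS1*, which starts the mevalonate pathway, was at 12.50 in Dox (+) and 13.92 in Dox (−) SK-N-MC cells (−1.42) and at 13.18 and 13.07 in RDES (0.11). *IDI1* differed by −1.49 in SK-N-MC and −0.59 in RDES, *INSIG1*, which holds back SREBP, by −1.38 and 0.18, and *MVD* by −1.26 and 0.36. With shUTR the list medians were −0.45 in SK-N-MC and 0.10 in RDES.

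Matrix genes differed both ways in SK-N-MC. Of 28 tested, 6 were lower and 3 higher by at least 1 log2. *LOX*, which cross-links collagen, was at 9.69 in Dox (+) and 11.41 in Dox (−) SK-N-MC cells (−1.73) and at 6.35 and 5.07 in RDES (1.28). Both RDES values were under 6.5, the level required here, so the RDES difference of *LOX* is one between signals at background. The proteoglycan gene *LUM* differed by −1.70 and 0.75, and *FN1*, which encodes fibronectin, by 1.10 and −1.21. *DCN* (−1.06 in SK-N-MC) and *TNC* (1.79 in SK-N-MC) were also under 6.5 in RDES without Dox. Over the 21 matrix genes at or above 6.5 in each line, 3 were lower and 2 higher in SK-N-MC and 1 lower and none higher in RDES, with medians of −0.06 and −0.07. Fibroblast markers, which include *LUM* and *DCN*, had medians of −0.55 (SK-N-MC) and 0.14 (RDES) over 8 genes tested, and 5 of the 11 on the arrays were at or above 6.5 in all 4 arrays. Their summed signal was 13.81 and 13.97 log2 in Dox (+) and Dox (−) SK-N-MC cells and 13.06 and 13.34 in RDES, and its part in these differences was not tested.

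The interferon response list lay on opposite sides of zero. Its median was 0.50 in RDES, with 5 of 30 genes higher and 1 lower by at least 1 log2, and −0.23 in SK-N-MC, with none higher and 4 lower. Of all genes tested, 1.15% were higher and 4% lower in RDES, and 0.876% higher and 1.51% lower in SK-N-MC. Over the 25 list genes at or above 6.5 without Dox in each line, 4 were higher and 1 lower in RDES (median 0.45). In SK-N-MC none of these 25 was higher and 4 were lower (median −0.27). *OAS1*, an antiviral sensor of double-stranded RNA, was at 10.52 in Dox (+) and 11.61 in Dox (−) SK-N-MC cells (−1.09) and at 9.35 in Dox (+) and 8.11 in Dox (−) RDES cells (1.24). *HLA-B* differed by −0.74 and 1.12 in the same order. *IFIH1*, the receptor MDA5, was the highest of the 30 in both lines, at 0.79 in SK-N-MC, where it was under 6.5 without Dox (5.86), and 1.31 in RDES. The list medians with shUTR were −0.38 and 0.21, and with shCtrl 0.25 and −0.00.

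The genes with the widest gap between lines repeated these themes. Of the 12 furthest below RDES in SK-N-MC, *ALDOC*, *DDIT4* and *LOX* were from the hypoxia list. *STC1*, a secreted glycoprotein, was at 8.62 in Dox (+) and 11.61 in Dox (−) SK-N-MC cells (−2.99) and at 10.27 and 9.21 in RDES (1.06). The tetraspanin *CD9* was at 6.37 and 9.26 in SK-N-MC cells (−2.89) and at 6.56 and 6.64 in RDES (−0.08). Both RDES values of *CD9* were close to 6.5, so a lower value could hardly be read there and the gap rests on SK-N-MC. *SERPINB12* was at 7.81 in Dox (+) and 10.75 in Dox (−) SK-N-MC cells (−2.94) and under 6.5 in RDES (6.32 and 6.34). Its SK-N-MC shUTR pair was at 6.59 and 6.08 and its shCtrl pair at 6.36 and 6.25, so the SK-N-MC difference rests on 1 Dox (−) array. *GCNT4*, a glycosyltransferase, was set apart by RDES, at 11.08 in Dox (+) and 8.76 in Dox (−) cells (2.32) against −0.39 in SK-N-MC.

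Of the 12 furthest below SK-N-MC in RDES, 7 were histone genes, and *CDCA8*, *CDCA5* and *UBE2S*, an E2 enzyme of the anaphase-promoting complex (0.54 in SK-N-MC and −2.04 in RDES), act in mitosis. The other 2 were transcription factors. *CREB5* was at 7.66 in Dox (+) and 7.76 in Dox (−) SK-N-MC cells (−0.09) and at 8.51 and 11.81 in RDES (−3.29). *ATF3* was at 8.60 and 8.06 in SK-N-MC cells (0.53) and at 5.70 and 7.92 in RDES (−2.21). Past 1 log2 in opposite directions stood 9 genes, 6 lower in SK-N-MC and higher in RDES (0.0389% of those tested) and 3 the other way round (0.0195%). Of the 9, 8 were at or above 6.5 without Dox in each line, and *LOX* was not.

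**Figure D5:**
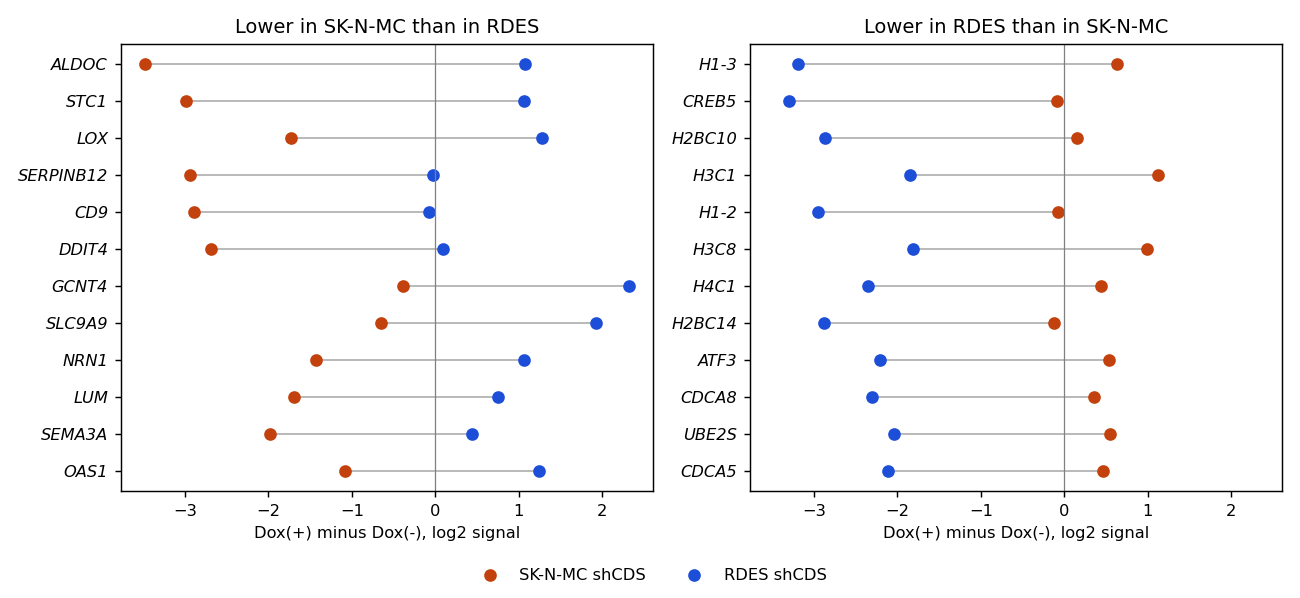
Dox (+) minus Dox (−) difference in log2 signal (horizontal axis) in SK-N-MC shCDS (orange) and RDES shCDS (blue) for the 12 genes with the widest gap in each direction, each joined by a line. *ALDOC* spans −3.48 to 1.07 on the left, and on the right the histones and mitotic genes sit near or above zero in SK-N-MC and below −1.8 in RDES.

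Among the remaining lists, ATF4 targets and tRNA synthetases had medians of 0.36 (SK-N-MC) and −0.17 (RDES) over 41 genes, led in SK-N-MC by the amino acid transporters *SLC1A4* (1.68) and *SLC7A5* (1.37), but the SK-N-MC shCtrl pair had a median of 0.51 too, and after subtraction of it the SK-N-MC median was −0.20. Ribosome biogenesis had medians of 0.39 and −0.19 over 59 genes. Of the 59, 56 were lower in RDES than in SK-N-MC, as were 9486 of all 15413 genes tested. Subtracting the pair labelled RDES shCtrl, which does not serve as a control of that line, turned the RDES median to 0.06. Targets activated by EWSR1-FLI1 had medians of 0.19 and 0.29 over 31 genes, with 2 lower and 1 higher past the limit, all in RDES. Immediate early genes had medians of 0.21 and −0.30 over 21 genes, with 1 lower and 3 higher by at least 1 log2 in SK-N-MC and 5 lower and 1 higher in RDES. *DUSP6*, a phosphatase that ends ERK signalling, differed by 1.78 in SK-N-MC and −0.07 in RDES, *EGR1* by 0.65 and 0.60, and *DUSP1*, a phosphatase of the same kind, by −0.36 and −1.61. Lists for mitophagy, fatty acid synthesis, the heat shock and TGF-beta responses, YAP/TAZ targets, Rab GTPases with their DENN activators, cytosolic ribosomal proteins and targets repressed by EWSR1-FLI1 had medians between −0.44 and 0.16 in both lines.

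The filter left out 18203 genes, and 255 of these reached 6.5 in the Dox (+) arrays of both lines. At its edge, *ITGB1BP2* was left out at a Dox (−) mean of 6.499 with differences of 0.11 and 0.04, and *SUMO2P20* was kept at 6.501 with 0.46 and 0.63.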

How the data were processed

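Clariom D arrays of 12 derivative lines and conditions were used as deposited. Each deposited value is the log2 signal of a probe set, which the authors obtained with SST-RMA, including background correction, quantile normalization and gene-level summary, so shared shifts of many genes are partly removed. The series description names Expression Console 1.4, the study's methods Transcriptome Analysis Console, and the submitters' processing notes RMA and hg38.

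Of 135750 probe sets, 36176 had 1 symbol in the supplied annotation, 1119 had several and 98455 had none, and only the first were used. The probe set with the highest mean over 12 arrays stood for its gene, and a mean of at least 6.5 over the Dox (−) shCDS arrays was required. Differences were Dox (+) minus Dox (−) within a line. For the 4 shCDS arrays a linear model in limma 3.58.1 (R 4.3.3, lmFit, eBayes, two-sided, Benjamini-Hochberg over 15413 genes, threshold 0.05) held Dox and, as a block, the cell line. Simulated data served to check its mean estimates against known changes, and how often it found those changes is not reported here. The pairing comes from the cell line. Deviations of same-line arrays from the group means correlated at r = 0.88 over these genes. Counts within a line carry no test, and their precision is limited by the number of arrays. Other steps used Python 3.11.15 and pandas 2.3.3.

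The 33 gene lists, the members and the tests were chosen with earlier results of these data known, so no list is independent evidence. The arrays held 1100 of 1212 listed genes and 953 were tested. Genes were named as *PRC1*, *DENND6A*, *BNIP3L* and *AURKB*, the 15 largest shared differences in each direction by the smaller of the 2 lines, the 12 widest gaps between lines in each direction, and up to 4 members of each list by mean size and 2 by gap. Small RNAs, unnamed loci and symbols ending in P with a number were left out of the rankings, and other names were chosen after their values were seen.

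Alternatives were no filter, other filters, no block, a trended prior, centring, a second quantile normalization, the mean of all probe sets, subtraction of shCtrl, the spread over all 6 pairs, a limit of 2 log2, each line left out and, chosen after seeing the data, a filter in each line. Sequences came from RefSeq promoter and miRNA tables (GRCh38.p14) and the study's oligonucleotide list.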

Additional observations from a re-analysis of the deposited data

Results flagged for a closer look

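A total of 9 genes lay at least 1 log2 below zero in 1 line and at least 1 log2 above zero in the other, so that the single pair of each line went opposite ways. The difference between the lines was not tested for any of them, since each line has 1 pair. As SK-N-MC minus RDES, the gap between the shCDS differences was −4.55 for *ALDOC*, −4.05 for *STC1*, −3.01 for *LOX*, −2.49 for *NRN1*, which encodes neuritin, −2.33 for *OAS1* and −2.24 for *RAB26*, a Rab GTPase of secretory granules. It was 2.96 for *H3C1*, 2.91 for the small RNA pseudogene *RNU6-180P* and 2.31 for *FN1*. The RDES signals of *LOX* were both under 6.5 (6.35 and 5.07), so its gap rests on SK-N-MC. *NRN1* differed by −1.43 in SK-N-MC and 1.06 in RDES, and *RAB26* by −1.03 and 1.20. With shCtrl in SK-N-MC *ALDOC* differed by 1.17, which is above the limit used here, and the other 8 by less than 1 log2 in either shCtrl pair. After subtraction of the shCtrl pairs as labelled, with the limits given for them, 3 of the 9 genes remained.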

How the results depend on the processing

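*PRC1* kept its direction and its side of the threshold in limma under all alternatives but 1: without the replicate block its mean difference was −3.99 with an adjusted p of 1, and its adjusted p elsewhere lay between 1.27e-06 and 0.0246. Leaving out each line gave −4.02 and −3.96. The count of genes past the limma threshold (1) was 0 without the replicate block, 25 with no filter, 16 with a trended prior, 6 with shCtrl subtracted and 16 with the spread over all 6 pairs. Subtracting the shCtrl difference of the same label used, for RDES, a pair that lay with SK-N-MC. For SK-N-MC it used a pair with *STAG2* between the lines. The subtraction gave 15 genes higher in both lines, 675 lower and 338 higher in SK-N-MC, 373 higher in RDES and 35 of opposite sign. It kept 45 of the 67 shared lower genes, 2 of the 7 shared higher genes and 3 of the 9 genes of opposite sign. With no filter 12 genes were higher in both lines, 391 lower and 342 higher in SK-N-MC, 413 higher in RDES and 15 of opposite sign. A filter at 8 gave 82 higher genes in SK-N-MC and 109 in RDES, and a second quantile normalization gave 11 higher in both. A filter chosen after seeing the data, at least 6.5 without Dox in each line, left 4 genes higher in both lines, all among the 7. A limit of 2 log2 left 3 genes lower in both lines and 0 higher. With the mean of all probe sets the COL1A1 mean difference, that of a collagen gene, was −0.00406, against 0.51 for the brightest probe set. The cause of these changes was not tested, apart from the fewer or more genes and the larger limit that the settings themselves bring. For the 62 list medians, 660 recomputed values stayed and 22 moved by more than the spread of the shCtrl differences of their genes. Counts in 1 line have no value with that line left out.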
